A study of Mus musculus with 32 samples.

Results

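The epidermal expression of 10 genes of glucose uptake and glycolysis was followed in mice with and without UV exposure. The genes were taken by symbol, as 10 of the 55401 gene identifiers in the deposited counts: *Slc2a1*, *Hk1*, *Hk2*, *Pfkp*, *Pfkfb3*, *Aldoa*, *Tpi1*, *Eno1*, *Ldha* and *Pkm*. All 10 were abundant enough to be tested. Epidermis from 32 SKH-1/SV129/BL6/J mice was sequenced, 1 mouse per library, in 8 groups of 4 mice. The groups were wild-type (WT) males and females and Ppard-/- (KO) male and female littermates, which lack the nuclear receptor PPARβ/δ. Within each genotype and sex, 4 mice received a single UV dose of 120 mJ/cm2 on the back, below the dose that reddens skin, and were collected 24 h later. The other 4 were handled alike without exposure. The mice were 10 to 14 weeks old. The epidermis was lifted off the dermis before RNA extraction, so each library is a mixture of all epidermal cells. Some libraries also held markers of muscle or dermis, given below. The comparisons asked how each gene responded to UV, and whether genotype or sex changed its level or its response.

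Glucose enters keratinocytes through facilitative transporters, is trapped by phosphorylation and is split and oxidized to pyruvate, which lactate dehydrogenase can reduce to lactate. Keratinocytes rely on this route for much of their energy, and proliferating epidermis takes up more glucose than resting epidermis. In the order of the pathway, *Slc2a1* encodes the transporter GLUT1, *Hk1* and *Hk2* encode the hexokinases of the trapping step, and *Pfkp* encodes the platelet-type phosphofructokinase of the committed step. *Pfkfb3* encodes the enzyme that makes fructose 2,6-bisphosphate, the allosteric activator of phosphofructokinase. *Aldoa* (aldolase A), *Tpi1* (triosephosphate isomerase), *Eno1* (enolase), *Pkm* (pyruvate kinase) and *Ldha* (the lactate dehydrogenase A subunit) act below that step. Many of these genes are known targets of the hypoxia-inducible factor HIF-1, whose binding core is ACGTG or GCGTG. In GRCm38 the uptake and trapping genes are *Slc2a1* at chr4:119108711-119137983 (plus strand), *Hk1* at chr10:62268855-62379908 (minus strand) and *Hk2* at chr6:82725025-82774454 (minus strand). The genes of the committed step are *Pfkp* at chr13:6579768-6648777 (minus strand) and *Pfkfb3* at chr2:11471433-11554077 (minus strand). Of the lower steps, the annotation places *Aldoa* at chr7:126795234-126800751 (minus strand), *Tpi1* at chr6:124810586-124814296 (minus strand) and *Eno1* at chr4:150236721-150248879 (plus strand). The genes of the last steps are *Pkm* at chr9:59656368-59679375 (plus strand) and *Ldha* at chr7:46841475-46855627 (plus strand).

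The 250 bases before a RefSeq start site are shown for both hexokinase genes, which differed from each other in their UV response, and for *Eno1* and *Ldha*, of the lower steps. The coordinates are those of GRCm38.p6, no annotated exon lies in these windows, and capitals mark ACGTG or GCGTG on either strand. Each sequence reads 5′ to 3′ on the strand of its gene. *Hk1* (chr10:62379909-62380158, minus strand) held no match, *Hk2* (chr6:82774455-82774704, minus strand) held 2, *Eno1* (chr4:150236458-150236707, plus strand) held 1 and *Ldha* (chr7:46845554-46845803, plus strand) held 5, where a CACGTG counts once on each strand.
Hk1: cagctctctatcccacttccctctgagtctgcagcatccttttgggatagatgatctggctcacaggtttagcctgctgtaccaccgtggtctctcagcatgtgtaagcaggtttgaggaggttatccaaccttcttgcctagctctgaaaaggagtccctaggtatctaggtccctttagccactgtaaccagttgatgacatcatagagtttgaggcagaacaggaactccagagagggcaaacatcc
Hk2: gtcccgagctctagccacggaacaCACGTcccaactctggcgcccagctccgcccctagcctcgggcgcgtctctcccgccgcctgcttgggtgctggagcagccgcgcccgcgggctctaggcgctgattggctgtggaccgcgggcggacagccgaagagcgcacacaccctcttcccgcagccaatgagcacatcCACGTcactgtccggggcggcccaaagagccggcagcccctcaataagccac
Eno1: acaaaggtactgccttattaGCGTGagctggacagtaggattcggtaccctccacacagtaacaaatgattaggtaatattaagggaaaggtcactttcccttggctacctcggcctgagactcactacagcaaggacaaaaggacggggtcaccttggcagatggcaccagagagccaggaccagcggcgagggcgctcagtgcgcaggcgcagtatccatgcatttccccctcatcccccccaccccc
Ldha: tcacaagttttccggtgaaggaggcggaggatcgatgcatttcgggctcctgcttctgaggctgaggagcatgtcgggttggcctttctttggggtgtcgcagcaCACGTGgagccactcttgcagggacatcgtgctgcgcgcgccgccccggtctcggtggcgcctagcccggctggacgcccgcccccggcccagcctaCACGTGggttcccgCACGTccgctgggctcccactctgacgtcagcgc
Over the 18 start sites listed for the 10 genes, 14 windows held at least 1 match, against 38.6% of the 32851 windows of all genes. Some windows of one gene overlap, and *Tpi1* was the gene without a match in any window. The second start site of *Hk1* had 3 matches, and the counts do not tell which start site was used.

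Gene counts summed to 22919428 in the shallowest and 40653581 in the deepest library, and the labelled sex of all 32 mice matched their *Xist* and *Ddx3y* levels. *Ppard* itself ranged from 87.3 to 105 cpm (counts scaled by TMM to a common library size) in WT and from 70.3 to 88.9 cpm in KO mice without UV. After UV it ranged from 252 to 326 cpm in WT and from 175 to 239 cpm in KO mice. The KO allele thus still gave reads on the gene, and the exon that it removes was not given in the sources used here, so the gene total is a weak check of genotype. Keratinocyte markers were summed per mouse, 7 for the basal layer, such as *Krt5* and *Krt14*, and 8 for the suprabasal layers, such as *Krt1* and *Krt10*. With UV, the summed basal markers went from 7505-16674 to 17358-29953 cpm in WT mice and from 5622-12235 to 16961-29498 cpm in KO mice. *Krt14* and *Krt5* make up most of that sum, and of the 7 basal markers 3 were higher and 2 lower with UV in WT mice, and 5 higher and 1 lower in KO mice. The summed suprabasal markers went from 66039-78954 to 11002-24885 cpm in WT mice and from 61436-105491 to 6678-29481 cpm in KO mice, with 7 of 8 markers lower and 1 higher in both genotypes. The part of this shift in the results below was not tested, and in whole epidermis fewer cells of a type and less RNA per cell cannot be told apart. Skeletal muscle markers summed to 7.54 to 5589 cpm, and exceeded 1000 cpm in 9 mice, in 6 of the 8 groups. These were 2 unexposed and 2 exposed KO females, 2 unexposed and 1 exposed WT females, and 1 exposed male of each genotype. Muscle RNA was thus unevenly spread over the sexes. Dermal fibroblast markers summed to 2187 cpm in the exposed KO female 54F, also among those 9 mice. They summed to at most 106 cpm in every other mouse.

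Per kilobase of transcript, *Aldoa*, *Ldha*, *Pkm* and *Tpi1* had the highest levels of the 10. In WT mice without UV, *Aldoa* stood at 479 ± 96.4 cpm per kb (SD, n = 8), *Ldha* at 366 ± 79.2, *Pkm* at 335 ± 61.4 and *Tpi1* at 251 ± 59.98 cpm per kb. *Pfkp* followed at 79.5 ± 11.7, *Eno1* at 58.7 ± 12.6, *Hk1* at 53.5 ± 4.98, *Slc2a1* at 35.4 ± 9.27, *Hk2* at 27.7 ± 8.17 and *Pfkfb3* at 17.7 ± 7.88 cpm per kb. Neighbours in this order overlapped between mice, apart from *Tpi1* (189 to 343 cpm per kb) and *Pfkp* (62.8 to 97.7 cpm per kb). Reads that aligned more than once were left out by the authors, which lowers genes with near-identical copies. In *Eno1*, 59% of the 100-base windows of the longest transcript occur in transcripts of other genes, chiefly the retrogene *Eno1b*, so that its level and its split from *Eno1b* are uncertain. The share was 16% in *Pfkp*, all with *Pitrm1*, and 9.82% in *Pkm*. It was at most 1.39% in the remaining 7 genes, the highest being *Hk1*, all with *Hk1os*. The search took either strand and did not separate copies from overlapping transcripts. It therefore shows no loss of *Pfkp* or *Hk1* reads to copies.

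UV exposure was followed by higher levels of some of these genes and lower levels of others. In WT mice 7 of the 10 genes passed the test (edgeR's quasi-likelihood test, Benjamini-Hochberg adjusted over 15546 genes), 4 of them higher and 3 lower after UV. UV altered much of the transcriptome, with 71% of all genes tested called (34.5% higher and 36.5% lower), so the share of 7 in 10 is that of the background. In KO mice 9 genes passed, 6 higher and 3 lower, against 70.8% of all genes (37.3% higher and 33.5% lower). The median log2 fold change of the 10 genes was 0.27 in WT and 0.35 in KO mice, beside −0.01 and 0.09 over all genes. The groups with and without UV did not overlap in either genotype for *Hk1*, *Eno1* and *Pkm*, as for 43.4% of all genes in WT and 35.1% in KO mice.

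**Figure D1:**
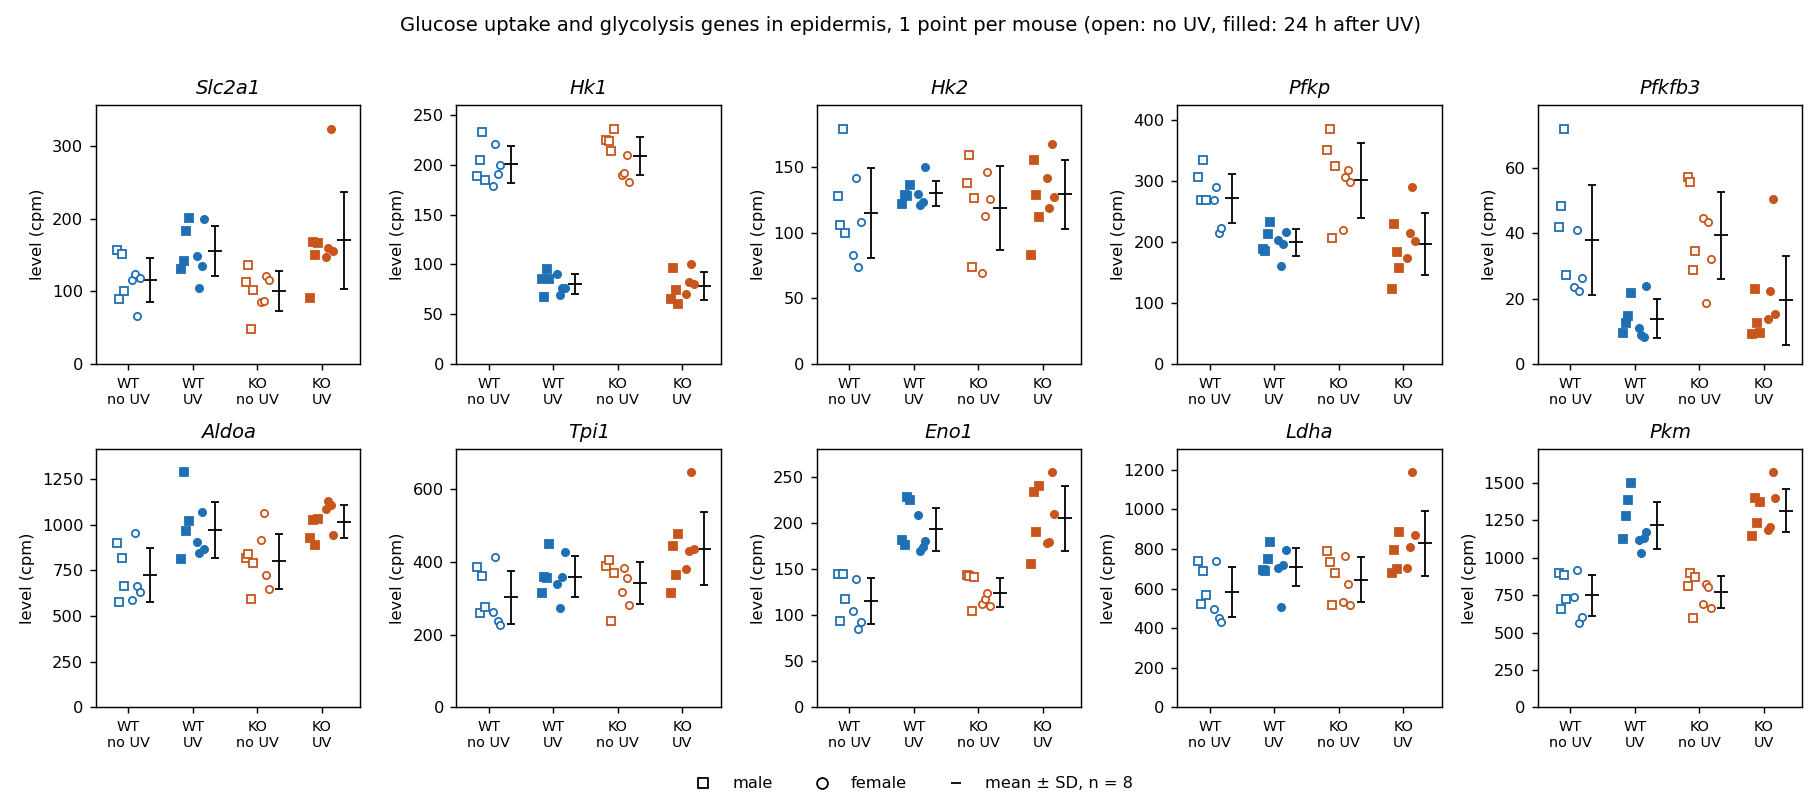
Level of each of the 10 genes in cpm (vertical axes, from 0) in WT and KO mice without UV and 24 h after UV. Each point is 1 mouse, squares are males, circles are females, and the bar beside each column gives the mean ± SD of 8 mice. *Hk1* falls to a separate lower range in both genotypes, *Eno1* and *Pkm* rise to separate higher ranges, and *Hk2* overlaps throughout.

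At the uptake step, *Slc2a1* ranged from 66.3 to 157 cpm (median 117) in WT mice without UV and from 105 to 201 cpm (median 145) after UV. The groups overlapped, with 3 of 8 exposed mice above all unexposed ones, and the log2 fold change of 0.44 ± 0.21 (SE) did not pass the test (adjusted p = 0.0603). In KO mice *Slc2a1* ranged from 48.1 to 137 cpm (median 107) without UV and from 91.2 to 324 cpm (median 157) after UV. There the rise of 0.74 ± 0.21 on the log2 scale passed (adjusted p = 0.00241), with 7 of 8 exposed mice above all unexposed ones. The glucose transporter therefore had a higher mean after UV in both genotypes and was called in KO mice, but the difference between the genotypes' responses was 0.30 ± 0.29 on the log2 scale and did not pass (adjusted p = 0.602).

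At the trapping step the hexokinases parted. *Hk1* ranged from 179 to 233 cpm (median 195) in WT mice without UV and from 67.2 to 95.1 cpm (median 80.8) after UV. In KO mice it ranged from 182 to 236 cpm (median 212) without UV and from 59.8 to 100.4 cpm (median 77.3) after UV. Every exposed mouse of either genotype lay below every unexposed mouse, and the level fell 2.49-fold in WT (log2 fold change −1.32 ± 0.09, adjusted p = 3.20e-13) and 2.66-fold in KO mice (−1.41 ± 0.09, adjusted p = 9.22e-14). *Hk2*, the inducible hexokinase, ranged from 74.1 to 179 cpm (median 107) without UV and from 121 to 150.2 cpm (median 129) after UV in WT mice. In KO mice it ranged from 69.5 to 159 cpm (median 126) without UV and from 83.1 to 168 cpm (median 128) after UV. Its log2 fold changes of 0.19 ± 0.16 in WT (adjusted p = 0.314) and 0.12 ± 0.16 in KO mice (adjusted p = 0.536) did not pass. In WT mice the unexposed range of *Hk2* enclosed the exposed one.

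At the committed step, *Pfkp* fell from a median of 269 cpm (214 to 333) to 199.5 cpm (160 to 233) in WT mice and from 311 cpm (206 to 385) to 193 cpm (122 to 290.1) in KO mice. The log2 fold changes were −0.44 ± 0.13 (adjusted p = 0.00335) and −0.62 ± 0.13 (adjusted p = 0.000113), with 6 of 8 WT and 5 of 8 KO exposed mice below all unexposed ones. *Pfkfb3* encodes a kinase that makes the activator of this step. It fell from a median of 34.1 cpm (22.4 to 71.9) to 11.7 cpm (8.36 to 23.8) in WT mice. In KO mice it fell from 39.0 cpm (18.5 to 57.04) to 14.5 cpm (9.24 to 50.5). The log2 fold changes were −1.41 ± 0.30 (adjusted p = 0.000132) and −1.07 ± 0.29 (adjusted p = 0.00203). *Pfkfb3* had the lowest mean cpm of the 10 genes and the largest SD relative to its mean in all 4 sets of 8 mice. Of the 8 exposed KO mice, 3 lay within the unexposed range. The other *Pfkfb* genes were added after their values were seen. *Pfkfb4* changed by 1.12 ± 0.14 on the log2 scale in WT and 0.65 ± 0.14 in KO mice, and passed in both. *Pfkfb2* changed by −0.43 ± 0.085 and −0.48 ± 0.085, and passed in both. *Pfkfb1* stood at 0.19 ± 0.19 in WT and 0.61 ± 0.19 in KO mice, and passed in KO mice alone.

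Below the committed step the called changes were all rises. *Pkm* went from a median of 731 cpm (566 to 918) to 1153 cpm (1034 to 1499) in WT and from 808 cpm (598 to 899) to 1303 cpm (1144 to 1571) in KO mice. All 8 exposed mice lay above all unexposed mice in both genotypes, and the log2 fold changes were 0.70 ± 0.10 (adjusted p = 5.92e-07) and 0.77 ± 0.10 (adjusted p = 1.27e-07). *Eno1* went from a median of 111 cpm (84.9 to 145) to 181 cpm (170.3 to 229) in WT and from 121 cpm (105 to 144) to 200.3 cpm (155 to 256) in KO mice, again without overlap. Its log2 fold changes were 0.75 ± 0.11 (adjusted p = 1.43e-06) and 0.73 ± 0.11 (adjusted p = 2.35e-06). The retrogene *Eno1b*, with 33.3% as many reads as *Eno1*, changed by 0.66 ± 0.13 and 0.61 ± 0.13 on the log2 scale.

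*Aldoa* rose from a median of 664 cpm (576 to 956) to 934 cpm (810 to 1286) in WT mice (log2 fold change 0.42 ± 0.12, adjusted p = 0.00236) and from 804 cpm (591 to 1065) to 1025 cpm (889 to 1128) in KO mice (0.35 ± 0.12, adjusted p = 0.0102). Aldolase A is also the muscle isoform, and the mouse highest in *Aldoa* also had the highest muscle marker sum in WT mice after UV (4202 cpm), in KO mice without UV (5589 cpm) and in KO mice after UV (3516 cpm). The part of muscle RNA in the *Aldoa* levels was not tested. Without the 9 mice above 1000 cpm of muscle markers, the *Aldoa* changes were 0.45 (adjusted p = 0.0017) in WT and 0.48 (adjusted p = 0.00146) in KO mice. *Ldha* rose by 0.30 ± 0.13 on the log2 scale in WT (adjusted p = 0.0391) and by 0.36 ± 0.13 in KO mice (adjusted p = 0.0131), from medians of 547 and 653 cpm to 710.0 and 804 cpm. *Tpi1* rose in KO mice (0.35 ± 0.14, adjusted p = 0.033) from a median of 363 to 433 cpm. In WT mice its log2 fold change was 0.25 ± 0.14 (adjusted p = 0.118), with medians of 269 and 357 cpm.

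The smaller of these calls rested on single mice. Leaving out 1 mouse at a time, 7 of the 32 removals ended the *Ldha* call in WT (adjusted p 0.0501 to 0.0861), 7 ended the *Tpi1* call in KO (0.0527 to 0.145) and 12 brought *Slc2a1* in WT past the threshold (0.0301 to 0.0473). Without KO male 52M, an unexposed mouse in which all 10 genes lay below their group means, the *Aldoa*, *Tpi1* and *Ldha* calls in KO mice were lost (adjusted p = 0.0618, 0.145 and 0.0723), and without KO female 66F the *Tpi1* and *Ldha* calls were lost (0.12 and 0.0557). The changes of *Hk1*, *Pfkp*, *Pfkfb3*, *Eno1* and *Pkm* stayed past the threshold in both genotypes under every alternative run.

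**Figure D2:**
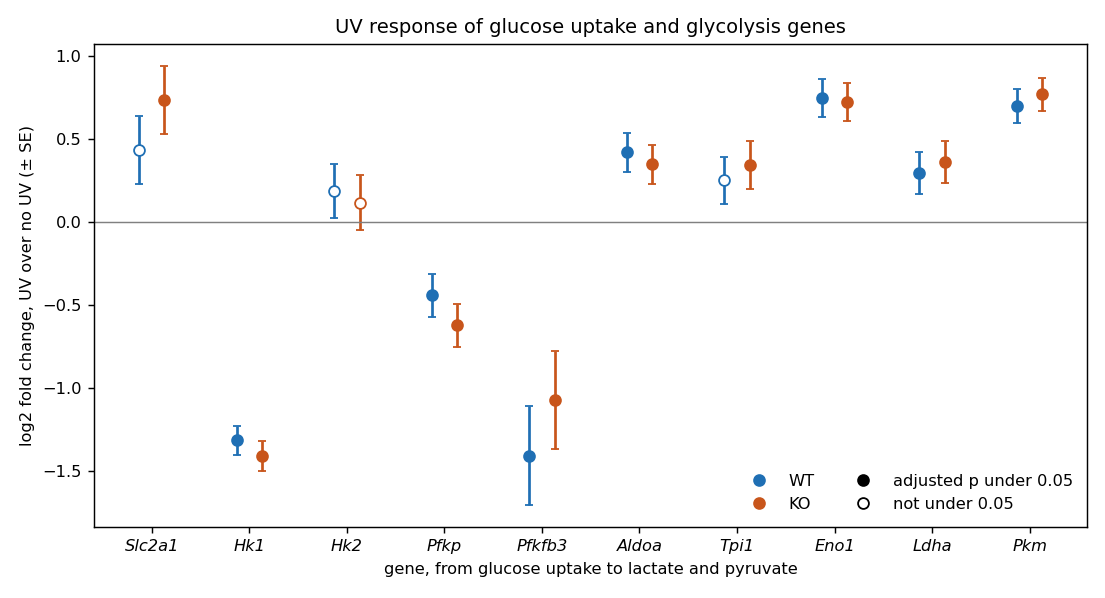
Log2 fold change of each gene with UV (vertical axis, ± SE) in WT and KO mice, in pathway order from uptake to pyruvate and lactate. Filled points passed an adjusted p of 0.05. *Hk1*, *Pfkp* and *Pfkfb3* lie below 0 and *Aldoa*, *Eno1*, *Ldha* and *Pkm* above 0 in both genotypes.

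The balance between isoenzymes was taken within each mouse, as a log2 ratio, and compared between groups of mice by two-sided exact permutation tests (12 tests, Benjamini-Hochberg adjusted). The log2 ratio of *Hk2* to *Hk1* was −0.85 ± 0.31 (SD, n = 8) in WT mice without UV and 0.70 ± 0.20 after UV. It lay below 0 in every unexposed mouse and above 0 in every exposed mouse of both genotypes. The change was 2.92-fold in WT (exact permutation p = 0.0004082, the smallest the design allows, adjusted p = 0.00122) and 2.98-fold in KO mice (same values of p). Per kilobase, *Hk1* (21.5 ± 2.66 cpm per kb) lay below *Hk2* (31.3 ± 2.30 cpm per kb) in WT mice after UV, the reverse of their order without UV. The log2 ratio of *Pfkp* to *Pfkl*, the liver-type phosphofructokinase, went from 1.39 ± 0.22 to 0.58 ± 0.13 in WT and from 1.38 ± 0.29 to 0.36 ± 0.22 in KO mice, and passed in both (exact permutation p = 0.0004082, adjusted p = 0.00122).

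The log2 ratio of *Ldha* to *Ldhb*, the subunits of lactate dehydrogenase, changed by 0.29 in WT (exact permutation p = 0.16, adjusted p = 0.275) and by 0.09 in KO mice (exact permutation p = 0.733, adjusted p = 0.799). Neither passed. That of *Slc2a1* to *Slc2a3*, the neuronal-type transporter GLUT3, rose by 1.51 in WT mice (exact permutation p = 0.000816, adjusted p = 0.00196) and changed by 0.80 in KO mice (exact permutation p = 0.141, adjusted p = 0.275). *Slc2a3* was near the detection limit, at 1.23 cpm without and 0.577 cpm with UV in WT mice. None of the 4 ratios differed between the genotypes in its UV response by this test (adjusted p 0.295 to 0.901).

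**Figure D3:**
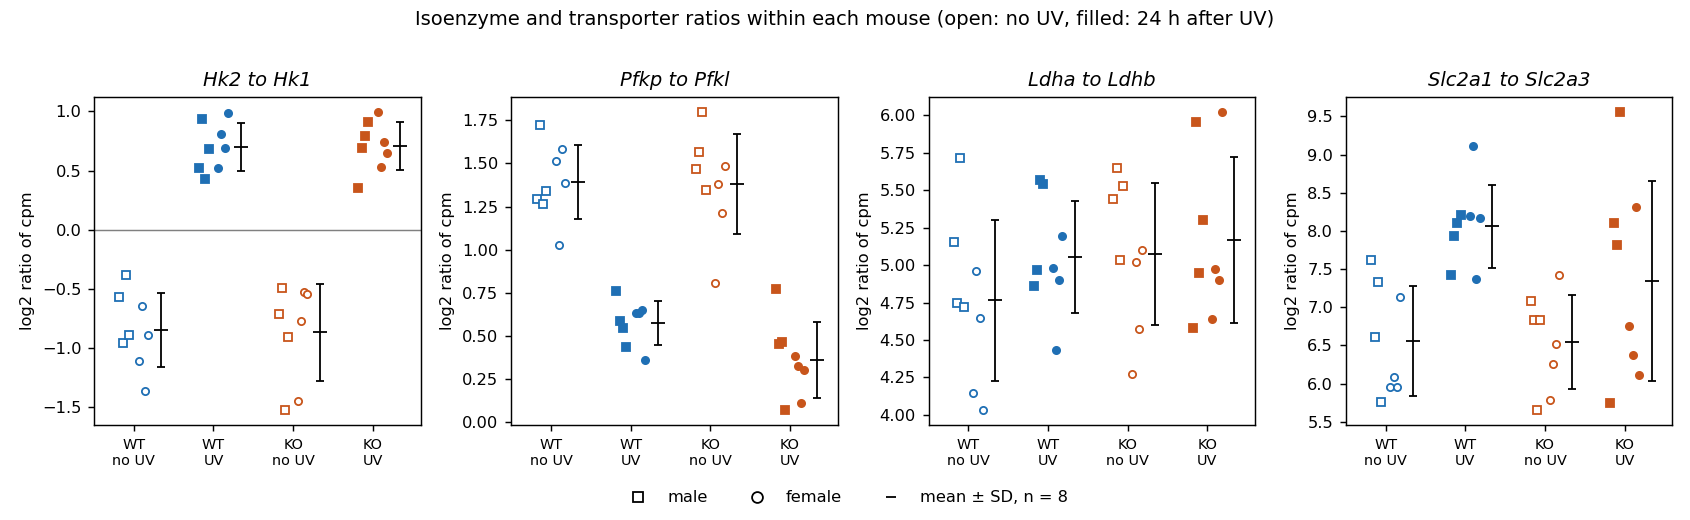
Log2 ratio of cpm within each mouse (vertical axes) for 4 pairs of isoenzymes or transporters, by genotype and UV, with males as squares, females as circles and mean ± SD of 8 mice. *Hk2* to *Hk1* lies below 0 in every mouse without UV and above 0 in every mouse after UV, and *Ldha* to *Ldhb* overlaps between all groups.

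No genotype difference passed the test in these genes. None of the 10 was called between KO and WT mice without UV (background 0.206% of all genes), after UV (3.31%) or in the genotype-by-UV interaction (0.765%) with edgeR, and none had an unadjusted p under 0.05 in these 3 comparisons. DESeq2 and limma-trend also called none. Without UV the log2 differences, KO over WT, ran from −0.19 ± 0.21 (*Slc2a1*) to 0.18 (*Tpi1*). After UV they ran from −0.04 ± 0.09 (*Hk1*) to 0.43 ± 0.29 (*Pfkfb3*), and the differences in UV response from −0.18 (*Pfkp*) to 0.34 ± 0.41 (*Pfkfb3*). The SE was smallest for *Hk1* and largest for *Pfkfb3*.

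Sex likewise gave no call. Between females and males none of the 10 passed without UV (background 6.86%), after UV (3.03%) or in the sex-by-UV interaction (0%) with edgeR, DESeq2 or limma-trend. At an unadjusted p under 0.05, 1 of the 10 stood out in the interaction and none in the other 2 comparisons. This was *Pfkfb3*, with a log2 interaction of 0.92 ± 0.41 (edgeR adjusted p = 0.696). In males it fell 3.24-fold with UV in WT (log2 fold change −1.70 ± 0.42, adjusted p = 0.00105) and 3.25-fold in KO mice (−1.70 ± 0.42, adjusted p = 0.00105). In females the change was −1.12 ± 0.42 in WT (adjusted p = 0.0226) and −0.44 ± 0.41 in KO mice (adjusted p = 0.365). The KO females included 66F, at 50.5 cpm after UV beside 13.7, 15.4 and 22.2 cpm in the other 3.

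Taken by sex and genotype, UV called 6 of the 10 genes in WT males (background 60.9%), 4 in WT females (61.3%), 5 in KO males (61.7%) and 6 in KO females (60.7%). *Hk1* fell in all 4 sets, with log2 fold changes of −1.29 ± 0.13 and −1.34 ± 0.13 in WT males and females and −1.61 ± 0.13 and −1.21 ± 0.13 in KO males and females. *Slc2a1* was called in KO females (0.94 ± 0.29, adjusted p = 0.00688), and its log2 fold changes in the other 3 sets were 0.40 ± 0.29, 0.47 ± 0.29 and 0.53 ± 0.29. Without 63F, the unexposed WT female with the highest levels, the count in WT females was 7 rather than 4.

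Beyond the groups, the 10 genes tended to be high or low together in a mouse. Each mouse was set against the mean log2 cpm of its own group. In 6 mice all 10 genes lay above their group means and in 5 mice all 10 lay below. The same count was not made for other sets of genes, so joint movement is not shown to be particular to these. The lowest was the unexposed KO male 52M, with a median deviation of −0.46 and *Slc2a1* at −0.95. The highest was the unexposed WT female 63F, at a median of 0.44, followed by the exposed KO female 66F at 0.38, where *Slc2a1* reached 324 cpm, *Ldha* 1188 cpm and *Tpi1* 647 cpm. *Aldoa* did not follow in every mouse, as in 66F, where its deviation was 0.06. In 6 of the 8 groups the mouse lowest in these genes also had the lowest summed basal keratinocyte markers. In 4 of 8 the highest mouse had the highest. Some such matches arise by chance in groups of 4 mice. In 52M the basal markers summed to 5622 cpm, the lowest of all 32 mice. The part of cell composition in this joint variation was not tested.

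**Figure D4:**
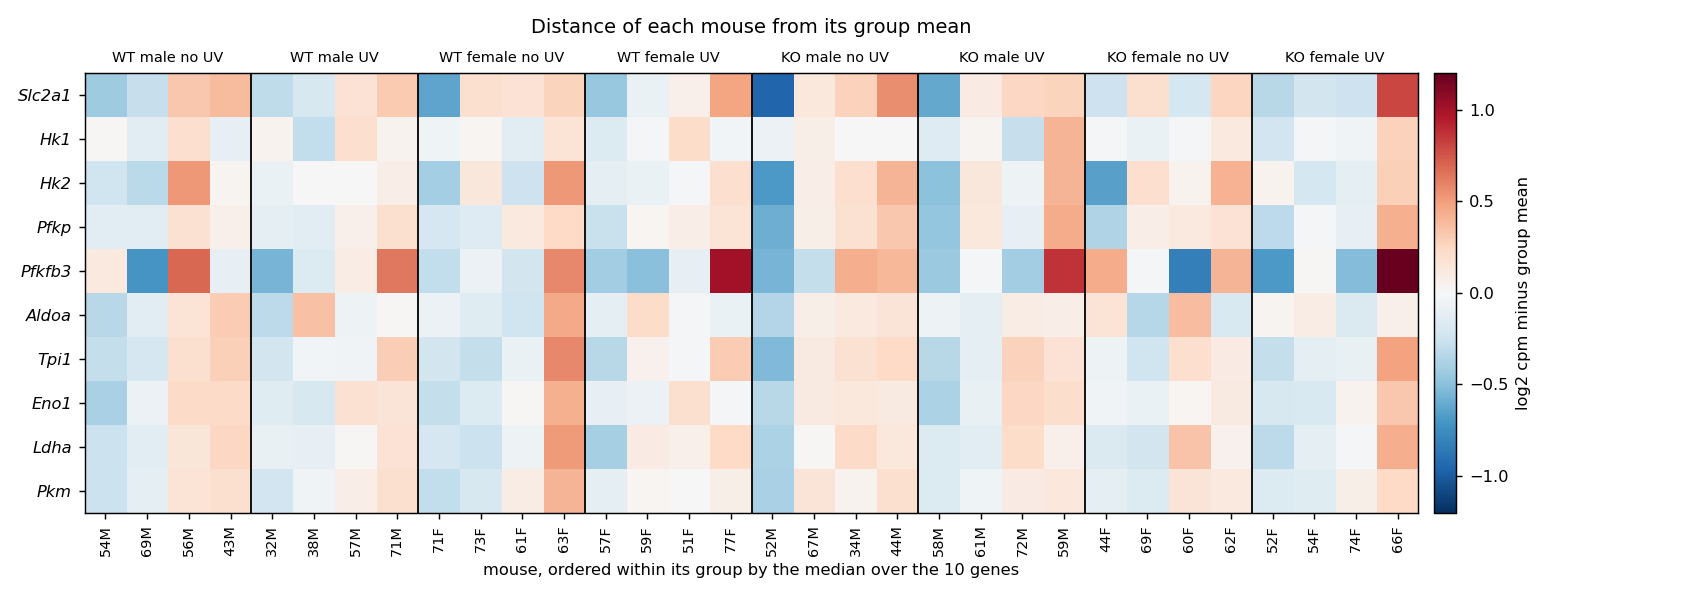
Deviation of each mouse from its group mean (color, log2 cpm) for the 10 genes (rows) in 32 mice (columns), ordered within each group by the median over the genes. Columns of one color mark mice in which the genes moved together, such as 52M (blue) and 63F and 66F (red).

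A wider set of 125 genes around the pathway was examined in the same way, and 109 of them could be tested. With UV 34 rose and 39 fell in WT mice, and 39 rose and 31 fell in KO mice, with medians of 0.06 and 0.14 on the log2 scale. This is 73 and 70 of 109, beside 71% and 70.8% of all genes. The counts of rises and falls in WT mice given for single lists stand beside 34.5% higher and 36.5% lower of all genes. Among the other glycolytic enzymes, 7 of 19 rose and 4 fell in WT mice. *Gapdh*, the enzyme after triosephosphate isomerase, rose by 1.19 ± 0.14 on the log2 scale, from 4.68 cpm without UV. Of the windows of its transcript, 78% occur in other genes, and the part of uncounted reads in this low level was not tested. *Hk3* (3.42 ± 0.91), a hexokinase of leukocytes, and *Gapdhs* (2.62 ± 0.24), the sperm-type paralog, rose from very low levels of 0.107 and 2.61 cpm. *Aldoc* (−1.02 ± 0.17), the brain-type aldolase, and *Adpgk* (−0.58 ± 0.07), which phosphorylates glucose with ADP, fell.

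Among 9 other glucose transporters, 2 rose and 4 fell in WT mice. *Slc2a12* (GLUT12) had the largest fall in WT mice, from 28.1 to 2.48 cpm (log2 fold change −3.50 ± 0.22, adjusted p = 4.93e-14), and *Slc2a8* also fell (−1.1 ± 0.11). *Slc5a1*, the sodium-coupled transporter SGLT1, rose by 0.47 ± 0.15 in WT (adjusted p = 0.00693) and stood at 0.04 ± 0.15 in KO mice (adjusted p = 0.805). *Slc2a9*, a urate and hexose transporter, rose in WT mice (1.11 ± 0.25). For lactate, 2 of 7 genes rose and 3 fell in WT mice. *Bsg*, the chaperone of the monocarboxylate transporters, rose by 0.63 ± 0.05. The transporters *Slc16a1* (MCT1) and *Slc16a7* (MCT2) fell in WT mice (−0.32 ± 0.11 and −2.51 ± 0.59). The transporter *Slc16a3* (MCT4), added after its values were seen, stood at 0.64 ± 0.36 in WT mice (adjusted p = 0.108). In KO mice *Slc16a3* rose by 1.54 ± 0.36 (adjusted p = 0.000436). *Slc16a7* was at a very low level, with 752 reads over all mice, and stood at −0.23 ± 0.54 in KO mice (adjusted p = 0.715). *Ldhd*, which oxidizes D-lactate, rose by 0.93 ± 0.13 in WT mice. No gene of the transporter and lactate lists differed between the genotypes in its UV response past the threshold.

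Of 15 genes of pyruvate entry into mitochondria, 6 were higher and 6 lower in WT mice, beside 34.5% and 36.5% of all genes. The pyruvate dehydrogenase subunits *Pdhb* (0.66 ± 0.08) and *Dlat* (0.57 ± 0.09) rose. Of the 4 kinases that inhibit the complex, *Pdk1* (−1.55 ± 0.16) and *Pdk3* (−2.33 ± 0.13) fell, from 62.9 to 21.5 cpm and from 46.7 to 9.17 cpm. Exposed and unexposed mice did not overlap in either genotype for these 2 kinases, as for 43.4% of all genes in WT and 35.1% in KO mice. *Pdk2* (−0.44 ± 0.64) and *Pdk4* (0.44 ± 0.45), added after their values were seen, did not pass in WT mice (adjusted p = 0.559 and 0.393). *Pdpr*, which regulates the phosphatase of the complex, fell by 1.45 ± 0.18. In the pentose phosphate pathway *H6pd*, its enzyme of the endoplasmic reticulum, rose from 2.04 to 25.3 cpm (3.63 ± 0.29), and transketolase, *Tkt*, fell by 0.85 ± 0.12. Of 16 glycogen genes, 4 rose and 6 fell in WT mice. The branching enzyme *Gbe1* (−2.83 ± 0.35), the phosphorylase *Pygl* (−2.30 ± 0.25) and the phosphorylase kinase subunit *Phkb* (−1.94 ± 0.17) fell, and the phosphoglucomutase *Pgm2* (1.11 ± 0.07) and the glycogen-targeting subunit *Ppp1r3b* (1.53 ± 0.35) rose.

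Of 19 regulators of glycolysis genes, 6 rose and 7 fell in WT mice. *Hif1a*, the oxygen-regulated subunit of HIF-1, rose from 143 to 369 cpm (1.37 ± 0.12, adjusted p = 6.66e-11). Of the 3 prolyl hydroxylases that mark it for degradation, *Egln1* (−1.77 ± 0.16) and *Egln3* (−0.78 ± 0.18) fell and *Egln2* (0.51 ± 0.08, adjusted p = 1.28e-06) rose. *Egln2* lies outside the naming rule and was added after its values were seen. *Txnip*, an arrestin that restrains glucose uptake, fell by 1.47 ± 0.22, while its relative *Arrdc4* rose by 1.67 ± 0.11. Of 12 HIF-1 targets outside glycolysis, 4 were higher and 3 lower in WT mice, beside 34.5% and 36.5% of all genes. Adrenomedullin, *Adm* (3.98 ± 0.30), *Ndrg1* (1.24 ± 0.18) and *Vegfa* (0.99 ± 0.22) rose, and *Bnip3* (−1.54 ± 0.30), *P4ha2* (−0.86 ± 0.22) and *Mxi1* (−0.50 ± 0.08) fell.

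**Figure D5:**
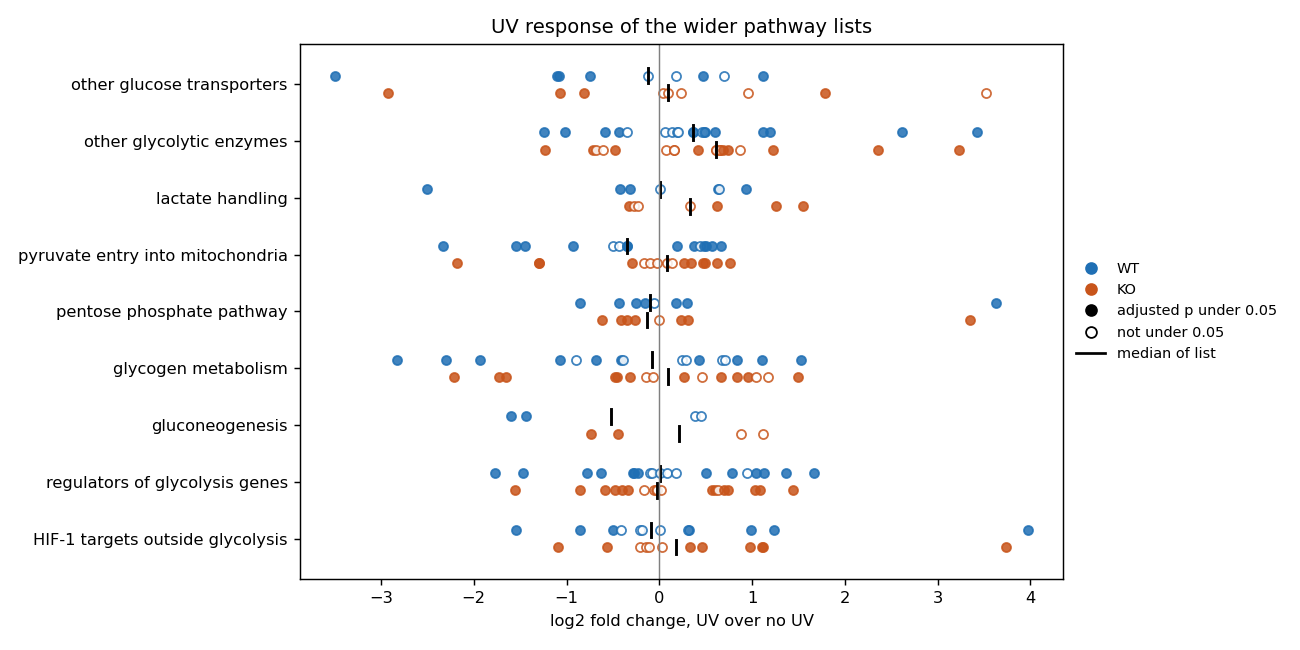
Log2 fold change with UV (horizontal axis) of the tested genes in 9 lists around glucose metabolism, in WT and KO mice. Each point is 1 gene, filled points passed an adjusted p of 0.05, and black bars are list medians. Every list held genes on both sides of 0.

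In the wider set, a genotype difference was called for 3 of 109 genes after UV and for 1 in the interaction, beside 3.31% and 0.765% of all genes, so that neither count stands apart from the background, and for none without UV (5 at an unadjusted p under 0.05 with edgeR, and 0 called with DESeq2 or limma-trend). *Pck2*, the mitochondrial PEP carboxykinase, fell with UV in WT (−1.599 ± 0.20) and in KO mice (−0.45 ± 0.19), and this difference passed (1.15 ± 0.27, adjusted p = 0.0394). After UV it was higher in KO than WT mice by 0.75 ± 0.19 (2.25 and 1.29 cpm, adjusted p = 0.033). *G6pc3*, the ubiquitous glucose-6-phosphatase, and *Pygb*, the brain-type glycogen phosphorylase, were higher in KO mice after UV by 0.48 ± 0.13 (adjusted p = 0.0367) and 0.41 ± 0.11 (adjusted p = 0.0421). All 3 genes overlapped between the genotypes after UV. Without the 9 mice with high muscle markers, and with limma-trend, none of these 4 calls remained. Between females and males, 12 of the 109 genes differed without UV (4 higher and 8 lower in females, beside 6.86% of all genes), 3 were higher in females after UV (3.03% of all genes), and none differed in UV response (11 at an unadjusted p under 0.05 with edgeR). Most of the 9 mice with high muscle markers were female. Leaving them out left none of the 109 genes called for sex without UV and 1 after UV. The part of muscle RNA in these sex differences was not tested.

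The genes whose profile over the 8 group means was nearest to each member were named among 8435 genes of at least 10 cpm. The nearest gene to *Hk1* was *Lmbr1*, with a root mean square difference of 0.03 on the log2 scale and changes of −1.32 in WT and −1.46 in KO mice. *Pfkfb3* varied about its own mean to a similar degree as *Hk1* (root mean square 0.72 and 0.69) but had no such close match. Its nearest genes were *Cux1* (0.16) and the HIF-1 target *Bnip3* (0.19). The other members varied less, and the differences were not scaled to this variation. *Eno1* was nearest to *Tpm4* (0.05), a tropomyosin, *Pkm* to *Rap1b* (0.06), a small GTPase, and *Ldha* to *Ero1l* (0.07), an oxidase of the endoplasmic reticulum. These profiles share the same libraries and mostly express the UV effect, and the likeness is given without a test.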

How the data were processed

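Per the labels, epidermal RNA of 32 mice was sequenced from stranded mRNA libraries, and the submitters' processing notes name bcl2fastq, cutadapt 1.8, STAR 2.5.3a, HTSeq 0.9.1 and GRCm38. The authors deposited whole-number read counts per gene, without normalization or filtering. Reads aligned more than once were not counted. The deposited tally of them was 31.383 to 38.757% of that tally plus the uniquely aligned reads. Whether the tally takes such a read once or once per alignment was not checked. Reads outside genes were 6.804 to 9.748% of those uniquely aligned.

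Genes reaching 1 cpm in at least 1 mouse were kept. Counts were scaled by TMM and fitted with a mean per group over all 32 mice with edgeR 4.0.16 (R 4.3.3) and its quasi-likelihood test. Adjustment followed Benjamini and Hochberg, and 0.05 was the threshold. The method was also run on simulated counts in which a small share of genes changed, equally up and down and only in exposed WT mice. That setting does not check the scaling under the wide UV response of these data. Contrasts average both sexes or both genotypes. Printed cpm are TMM-scaled, and ratios use log2 cpm with a prior count of 1, with UV labels permuted within sex and, for the interaction, genotype labels within sex and treatment. Per-kilobase levels use the median length of protein-coding transcripts in GENCODE M21. Alternatives were RLE scaling, DESeq2 1.42.0, limma-trend, the authors' own test (limma 3.58.1), filterByExpr, no filter, genotypes fitted separately, a prior count of 0.25 and leaving out each mouse. Leaving out mice with muscle markers above 1000 cpm was chosen after seeing the data.

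The 10 genes and the lists were chosen with earlier results of these data known. Text names all 10 genes, up to 3 of the largest called rises and falls of each list with UV in WT mice, list genes called for genotype or an interaction, and *Ppard*. One gene that this rule would name is not reported here. *Eno1b* was added as the near copy of *Eno1*. *Hk2*, *Hk1*, *Eno1* and *Ldha* sequences were chosen after values were seen. Likeness is the root mean square difference of centred log2 group means, with the 2 nearest genes found per member and a selection of them printed.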

Additional observations from a re-analysis of the deposited data

Results flagged for a closer look

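In groups of 4 mice, a mouse was singled out where its gap to the nearest other mouse relative to the group's range, on the log2 scale, passed the critical value of Dixon's test. This was tested in 80 sets of 4 values, and 4 were singled out. Chance alone singles out about 1 in 20 sets. *Slc2a1* was far above the rest of exposed KO females in 66F, at 324 cpm, and far below the rest of unexposed WT females in 71F, at 66.3 cpm. The unexposed KO male 52M stood far below its group for *Aldoa*, at 591 cpm, and *Eno1*, at 105 cpm. 52M had the lowest and 66F the highest summed basal markers of their groups, 5622 and 29498 cpm. The part of cell composition in these values was not tested. No gene of the 10 had a UV response that differed between genotypes or sexes past the threshold.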

How the results depend on the processing

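Counts of the 10 genes called with UV kept within 1.5 times under all alternatives in WT (6 to 8) and KO mice (6 to 9). No alternative called any of the 10 for genotype, sex or an interaction. In WT females the count ran from 3 to 7 when single mice were left out, with 7 without 63F. Beyond the smaller UV calls given above, RLE scaling, DESeq2 and separate fits of the genotypes brought *Slc2a1* in WT past the threshold (adjusted p = 0.044, 0.0297 and 0.0303), and without a filter *Ldha* in WT and *Tpi1* in KO missed it (0.061 and 0.0918).

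In the wider set, the count for genotype after UV (3) was 6 with DESeq2 and 0 with limma-trend, without a filter or without the mice high in muscle markers, and ran from 0 to 7 when single mice were left out. The interaction count (1) was 4 with DESeq2, 0 under the same 3 settings, and 0 to 3 without single mice. For sex without UV (12) it was 23 with DESeq2, 3 without a filter, 0 without the muscle-high mice, and 2 to 19 without single mice. For sex after UV (3) it was 6 with DESeq2, 1 with limma-trend, without a filter or without the muscle-high mice, and 1 to 5 without single mice. Over all genes, the calls for genotype without UV (32) were 78 with DESeq2 and 18 without the muscle-high mice. Those for genotype after UV (514) were 1116 with DESeq2, 260 with limma-trend, 263 without a filter and 26 without the muscle-high mice. The interaction (119) gave 777, 55 and 30 with DESeq2, without a filter and without those mice. Sex without UV (1066) gave 1676 with DESeq2, 653 with filterByExpr, 327 without a filter and 226 without those mice, sex after UV (471) gave 1196 with DESeq2, 239 without a filter and 26 without those mice, and the sex-by-UV interaction (0) gave 22 with DESeq2 and 2 with limma-trend. Without single mice these counts ran from 20 (without 69F) to 45 (63F) for genotype without UV, 133 (51F) to 983 (59M) for genotype after UV, 56 (69M) to 346 (59M) for the genotype interaction, 464 (61F) to 1753 (43M) for sex without UV, 117 (59F) to 1043 (74F) for sex after UV and 0 to 1 (62F) for the sex interaction. The log2 ratio changes that did not pass moved across 0 or by little without single mice, from −0.079 to 0.10 for the *Hk2* to *Hk1* interaction and from −0.060 to 0.19 for *Ldha* to *Ldhb* in KO mice. The causes were not tested. No paired analysis was possible because no mouse was sampled in more than 1 group.

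Log2 differences near 0 changed sign when single mice were left out, and none was called with either sign. For genotype after UV they ran from −0.072 to 0.20 for *Slc2a1*, −0.13 to 0.00599 for *Hk1*, −0.099 to 0.026 for *Hk2* and −0.12 to 0.020 for *Pfkp*. For sex after UV they ran from −0.037 to 0.20 for *Slc2a1*, −0.020 to 0.11 for *Hk1*, −0.060 to 0.054 for *Aldoa*, −0.020 to 0.14 for *Tpi1* and −0.041 to 0.10 for *Ldha*. For UV in KO they ran from −0.0075 to 0.21 for *Hk2*. For genotype without UV they ran from −0.014 to 0.16 for *Hk2*, −0.00227 to 0.23 for *Pfkfb3* and −0.00341 to 0.12 for *Pkm*. For sex without UV they ran from −0.046 to 0.096 for *Aldoa*. For sex-by-UV interaction they ran from −0.13 to 0.043 for *Aldoa* and −0.065 to 0.11 for *Pkm*. For genotype-by-UV interaction they ran from −0.023 to 0.15 for *Tpi1*, −0.11 to 0.035 for *Eno1*, −0.040 to 0.11 for *Ldha* and −0.025 to 0.12 for *Pkm*. The sign also turned without the mice high in muscle markers, to 0.10 for *Slc2a1* in sex without UV, 0.061 for *Hk2* in genotype after UV, 0.074 for *Pfkp* in genotype after UV, 0.036 for *Aldoa* in genotype-by-UV interaction, −0.19 for *Aldoa* in sex without UV, 0.15 for *Aldoa* in sex-by-UV interaction and 0.00998 for *Eno1* in genotype-by-UV interaction. The sign also turned with limma-trend, to 0.00292 for *Aldoa* in sex after UV. The sign also turned with filterByExpr, to −0.035 for *Pkm* in sex-by-UV interaction. The sign also turned without a filter, to −0.027 for *Pkm* in sex-by-UV interaction.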
